A study of Mus musculus with 96 samples.

Results

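The dopamine receptor genes Drd1, Drd2, Drd3, Drd4 and Drd5 were followed in 4 tissues (striatum, liver, pancreas, adipose tissue) from 24 C57BL/6JOlaHsd mice. The members were chosen by name, through the gene symbol that the array's annotation gives each transcript cluster. Each of the 5 genes had 1 transcript cluster, and together they are 5 of the 19505 genes in the table. The antipsychotics compared were olanzapine at 3.5 mg/kg and risperidone at 1 mg/kg, each against vehicle, which was saline with DMSO and Tween 20. All mice, vehicle-treated ones included, were of this substrain, ate standard chow and received 1 subcutaneous injection a day for 28 days, and they were killed 1 h after the last one. They were bought at 6 weeks of age and acclimatised for at least 10 days before treatment. Every group held 8 mice, 4 females and 4 males, and every mouse gave 1 array per tissue, so 96 arrays were analyzed. A mouse is named here by its sex and number (F26, M3). Values are log2 intensities after robust multichip analysis (RMA), so a difference of 1 is a doubling of signal.

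Dopamine receptors couple to G proteins and fall into 2 classes. Drd1 and Drd5 encode D1-like receptors, which stimulate adenylyl cyclase, while Drd2, Drd3 and Drd4 encode D2-like receptors, which inhibit it. Most striatal neurons are GABAergic projection neurons. Those of the direct pathway carry the D1 receptor and those of the indirect pathway carry the D2 receptor, and both contain DARPP-32, a phosphatase inhibitor controlled by dopamine and encoded by Ppp1r1b. Risperidone and olanzapine both block the D2 receptor. Ppp1r1b was therefore used as a measure of how much projection neuron RNA each striatum sample held.

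Drd1 and Drd2 moved together across the striatum arrays in the results that follow, so the sequences before both genes are shown. They were taken from RefSeq on GRCm38.p6, read 5′ to 3′ on the strand of the gene, and hold the bases of the promoter window that lie outside the annotated gene. The Drd1 stretch is chr13:54055659-54055908 on the minus strand and the Drd2 stretch is chr9:49340153-49340359 on the plus strand. Capitals mark GGGCGG or its reverse complement CCGCCC, the GC box that Sp1 family factors are known to bind.
Drd1: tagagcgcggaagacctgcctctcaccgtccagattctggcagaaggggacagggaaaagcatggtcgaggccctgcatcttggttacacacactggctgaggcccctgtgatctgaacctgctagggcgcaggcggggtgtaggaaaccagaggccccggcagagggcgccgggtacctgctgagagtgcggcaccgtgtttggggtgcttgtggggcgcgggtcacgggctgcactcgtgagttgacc
Drd2: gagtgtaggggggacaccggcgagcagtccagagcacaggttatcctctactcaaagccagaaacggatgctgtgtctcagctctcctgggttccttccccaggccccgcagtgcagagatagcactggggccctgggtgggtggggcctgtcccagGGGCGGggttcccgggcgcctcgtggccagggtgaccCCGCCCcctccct
Within the 250 bases before the start, the Drd2 window held 2 such matches on either strand, and the Drd1 window shown held 0, although a window before a second, internal Drd1 start held 1. Of 32851 promoter windows in the table, 32.7% held at least 1. The windows of Drd5 and Drd4 held 2 and 3 matches (those of Drd4 partly overlapping) and that of Drd3 held 0. The Drd3 window lies wholly inside the annotated gene, before an internal start, and so is not upstream of the gene. GC content was 64.0% for the Drd1 window shown, 68.8% for Drd2, 39.2% for Drd3, 56.8% for Drd4 and 71.2% for Drd5. The median over all windows was 52.4%. The letters TATAAA and TGACGTCA, searched on both strands, were found in none of these windows, against 12.4% and 1.55% of all windows. These matches describe the sequence and were not tested as binding sites.

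Drd1 and Drd2 had strong signals in the striatum and near-background signals in the other tissues. Levels were read against 1080 olfactory receptor genes, most of which are silent outside the nose, so that their values show what an unexpressed gene looks like on these arrays. The labelling kit was WT PLUS for striatum and liver RNA but Pico for pancreas and adipose RNA, so no test was made between tissues. The order of the genes within a tissue is not interpreted either, because different probes differ in brightness.

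In the striatum, Drd1 ranged from 9.16 to 14.37 (median 12.88, n = 24) and Drd2 from 10.69 to 14.87 (median 13.54). The mean of each exceeded 100% of the olfactory receptor genes, whose median was 5.63. Drd3, the D2-like receptor best known from the ventral striatum, ranged from 7.52 to 9.00 and its mean exceeded 99.3% of them. Drd5 ranged from 7.15 to 8.28 (98.5%) and Drd4 from 6.69 to 7.67 (94.6%). Drd1 and Drd2 thus spanned several log2 units between mice, and Drd3, Drd4 and Drd5 varied little close to the upper end of the background.

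In the liver, Drd2 ranged from 2.94 to 4.20 and its mean exceeded 3.15% of the olfactory receptor genes. Drd3 ranged from 5.03 to 6.82 in the liver and its mean exceeded 96.1% of them. In the pancreas the means of the receptors exceeded between 19.4% and 73.4% of them. In the adipose tissue Drd1 ranged from 7.30 to 8.80 (82.6%) and Drd2 from 5.14 to 6.59 (8.89%). Outside the striatum, no receptor other than Drd3 in the liver had a mean above the 95th percentile of the olfactory receptor genes.

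**Figure D1:**
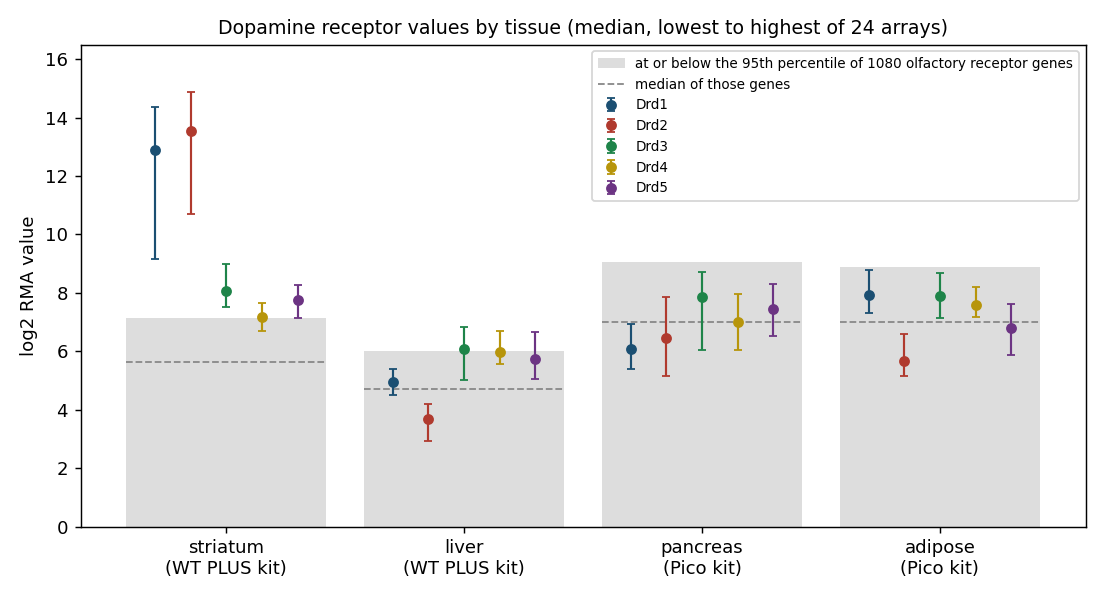
Log2 RMA values (y axis) of the 5 receptors in each tissue (x axis). Points are medians and bars run from the lowest to the highest of 24 arrays, and grey bands end at the 95th percentile of 1080 olfactory receptor genes. Drd1 and Drd2 lie well above the band in the striatum, with medians of 12.88 and 13.54, and the other values lie near or inside it.

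The tissues carried their defining markers. All 11 measured markers of projection neurons, all 7 of hepatocytes, all 6 of pancreatic acinar cells and all 7 of adipocytes were above the 95th percentile of the olfactory receptor genes in their tissue. The striatum arrays also held signal of neighbouring structures. All 10 markers of thalamus, septum and pallidum and 8 of 11 markers of choroid plexus passed the same mark, and their levels varied widely between mice. The mean of the thalamus, septum and pallidum markers ranged from 8.37 to 13.14 in olanzapine-treated mice, from 8.16 to 12.18 in risperidone-treated mice and from 8.45 to 12.90 in vehicle-treated mice. One striatum array stood apart, that of the olanzapine-treated female F26, whose Ppp1r1b value of 11.41 was the lowest of all 24. The receptor, Ppp1r1b and gene list differences of the striatum that it moves are also given without it.

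Drd1 and Drd2 were lower in the striatum of olanzapine-treated mice than in that of risperidone-treated mice, and neither drug differed from vehicle by the test over all genes. Drd1, the main D1-like receptor of the direct pathway, had a lowest, median and highest value of 9.16, 12.37 and 13.00 in olanzapine-treated mice, of 12.80, 13.75 and 14.37 in risperidone-treated mice and of 11.46, 13.08 and 14.29 in vehicle-treated mice. Of the 8 olanzapine-treated mice, 6 lay below every risperidone-treated mouse and all 8 lay below the vehicle median. The groups nevertheless overlapped in every comparison.

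The mean of Drd1 was 11.99 ± 1.24 in olanzapine-treated mice and 13.56 ± 0.54 in risperidone-treated mice (SD, n = 8 each). The difference was -1.57 (SE 0.44, 95% interval -2.47 to -0.67) and passed limma's test with Benjamini-Hochberg adjustment (adjusted p = 0.0355). This call was fragile. It was lost when any 1 of the 9 mice F4, F6, M4, M23 and M24 (risperidone) or F7, F26, M25 and M26 (olanzapine) was left out, with adjusted p-values up to 0.0853. Without F26 the difference was -1.15 (adjusted p = 0.0694). Against vehicle, whose mean was 13.02 ± 1.03, olanzapine gave -1.03 (SE 0.44, interval -1.93 to -0.13, unadjusted p = 0.0267, adjusted p = 0.402 by limma). Without F26 this was -0.61. Risperidone gave 0.54 (SE 0.44, interval -0.36 to 1.44, adjusted p = 0.915 by limma).

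Drd2, which encodes the D2 receptor of indirect pathway neurons and is also the autoreceptor of dopamine neurons, showed the same pattern. Its lowest, median and highest values were 10.69, 12.49 and 13.54 in olanzapine-treated mice, 13.23, 14.17 and 14.87 in risperidone-treated mice and 11.92, 13.69 and 14.83 in vehicle-treated mice. Again 6 of 8 olanzapine-treated mice lay below every risperidone-treated mouse, and 1 of 8, F26, lay below every vehicle-treated mouse.

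Olanzapine minus risperidone was -1.59 for Drd2 (SE 0.35, interval -2.31 to -0.86, adjusted p = 0.0126 by limma). The call was kept with any single mouse left out (-1.76 to -1.31, adjusted p 0.00619 to 0.0336). Olanzapine minus vehicle was -1.06 (SE 0.35, interval -1.78 to -0.33, unadjusted p = 0.00583, adjusted p = 0.286 by limma), and without F26 it was -0.78. For risperidone minus vehicle the estimate was 0.53 (SE 0.35, adjusted p = 0.915 by limma).

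Between the drugs, 2 of 5 receptors were therefore called, both lower in olanzapine-treated mice, against 391 of 19505 genes in that direction (2%), 557 genes in the other (2.86%) and 948 in either (4.86%). The number of genes called over the whole table changed with single mice. It was 409 without F26, between 463 and 613 without any 1 of F6, M4, M24, F7, M25 and M26, 1442 without F23 and 1864 without M9. Against vehicle, 0 of 5 receptors and 0% of all genes were called by limma for either drug. For olanzapine minus vehicle the count over all genes was 116 without the vehicle-treated mouse M3 and 202 without the olanzapine-treated mouse M9, with no receptor among them. At an unadjusted p under 0.05 there were 2057 genes for olanzapine, Drd1 and Drd2 among them, and 1053 for risperidone, Drd5 among them. The comparisons share mice, since both drugs were set against the same vehicle group.

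Drd5, the second D1-like receptor, had values near background and was called in no drug comparison unless arrays were weighted by their quality, when olanzapine minus risperidone passed (0.44, adjusted p = 0.0366 by limma). It had 7.43, 7.77 and 8.28 as lowest, median and highest value in olanzapine-treated mice, 7.15, 7.45 and 7.92 in risperidone-treated mice and 7.49, 7.85 and 8.09 in vehicle-treated mice. In the risperidone group 5 of 8 mice were below every vehicle-treated mouse. Risperidone minus vehicle was -0.37 (SE 0.14, interval -0.65 to -0.08, unadjusted p = 0.0128, adjusted p = 0.913 by limma) and olanzapine minus risperidone was 0.37 (adjusted p = 0.125). Olanzapine minus vehicle was 0.00, with an interval of -0.28 to 0.28.

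Drd3 and Drd4, the other D2-like receptors, were not called in any drug comparison of the striatum. Drd3 averaged 8.00 ± 0.53 in olanzapine-treated mice, 8.17 ± 0.20 in risperidone-treated mice and 7.98 ± 0.24 in vehicle-treated mice. The widest spread was in the olanzapine group, which held the highest value, 9.00, and the lowest, 7.52. Drd4 averaged 7.04 ± 0.22, 7.27 ± 0.26 and 7.08 ± 0.23 in the olanzapine, risperidone and vehicle groups. Against vehicle, the 95% intervals for these genes ran from -0.33 to 0.37 for Drd3 and from -0.30 to 0.21 for Drd4 under olanzapine, and from -0.16 to 0.54 and from -0.07 to 0.44 under risperidone.

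**Figure D2:**
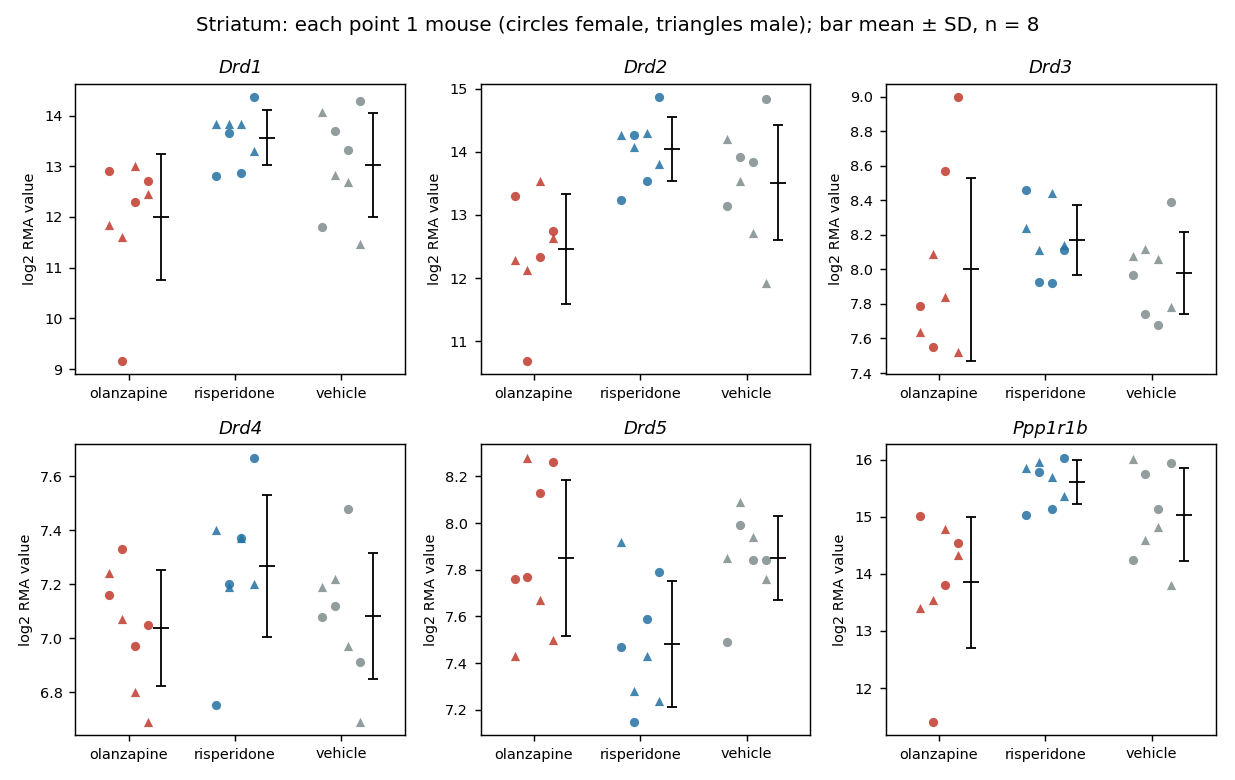
Log2 RMA values (y axis) of the receptors and Ppp1r1b in the striatum of olanzapine-, risperidone- and vehicle-treated mice (x axis), 1 point per mouse, with the mean ± SD beside each group. Olanzapine-treated mice lie lowest for Drd1, Drd2 and Ppp1r1b, with F26 at 9.16, 10.69 and 11.41, and each y axis has its own range.

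Ppp1r1b itself differed between the groups in the same way as Drd1 and Drd2. Its values ran from 11.41 to 15.02 in olanzapine-treated mice (median 14.07), from 15.03 to 16.04 in risperidone-treated mice (median 15.74) and from 13.80 to 16.02 in vehicle-treated mice (median 14.98). The ranges of the 2 drugs did not overlap. Olanzapine minus risperidone was -1.75 (SE 0.38, adjusted p = 0.0121 by limma), and olanzapine minus vehicle was -1.18 (SE 0.38, adjusted p = 0.273). Without F26 these were -1.39 (adjusted p = 0.0271) and -0.82 (adjusted p = 0.468 by limma). Because a piece of striatum is a mixture, fewer projection neurons in the sample and less receptor RNA per neuron cannot be told apart by these values.

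Across the 24 striatum arrays, Drd1 and Drd2 followed Ppp1r1b closely. Drd1 correlated with it at Pearson's r = 0.977 and Spearman's rho = 0.956, and Drd2 at r = 0.952 and rho = 0.934. Each raw p was 1e-05, the smallest that 100000 permutations can give, and 2.5e-05 after adjustment over the 5 receptors. Without the 2 arrays farthest from the median of Ppp1r1b (F26 and M25 of the olanzapine group) r was still 0.959 for Drd1 and 0.935 for Drd2. Among 19504 other genes, Drd1 ranked 5 and Drd2 ranked 22 in correlation with Ppp1r1b.

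The relation was present within each treatment group of 8 mice. For Drd1, r was 0.981 in olanzapine-treated mice, 0.962 in risperidone-treated mice and 0.979 in vehicle-treated mice, and the exact permutation p-values, adjusted over 15 relations, were 0.00093, 0.00167 and 0.00093. For Drd2 the corresponding values were 0.974, 0.918 and 0.885, with adjusted exact permutation p-values of 0.00149, 0.00298 and 0.00769. With treatment and sex means removed, r was 0.976 for Drd1 and 0.916 for Drd2. It was 0.977 for Drd1 and 0.938 for Drd2 in the 12 males and 0.979 and 0.964 in the 12 females. In the fit with treatment and sex, a unit of Ppp1r1b went with 1.13 units of Drd1 (SE 0.06, adjusted p = 1.71e-12 by limma) and with 0.85 units of Drd2 (SE 0.08, adjusted p = 7.41e-08). A slope was called for 2 of 5 receptors against 2.93% of all genes.

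The correlations of Drd3, Drd4 and Drd5 with Ppp1r1b did not pass the test. Their r values were 0.298, 0.215 and -0.217 (adjusted permutation p-values 0.259, 0.314 and 0.314), and correlations at least this large in size were held by 37.4%, 51.9% and 51.6% of genes. Drd4 was sensitive to single arrays. Without the 2 arrays farthest from the median of Ppp1r1b its r was 0.538 (adjusted permutation p = 0.017), while within the olanzapine group it was -0.606 (adjusted exact permutation p = 0.205).

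**Figure D3:**
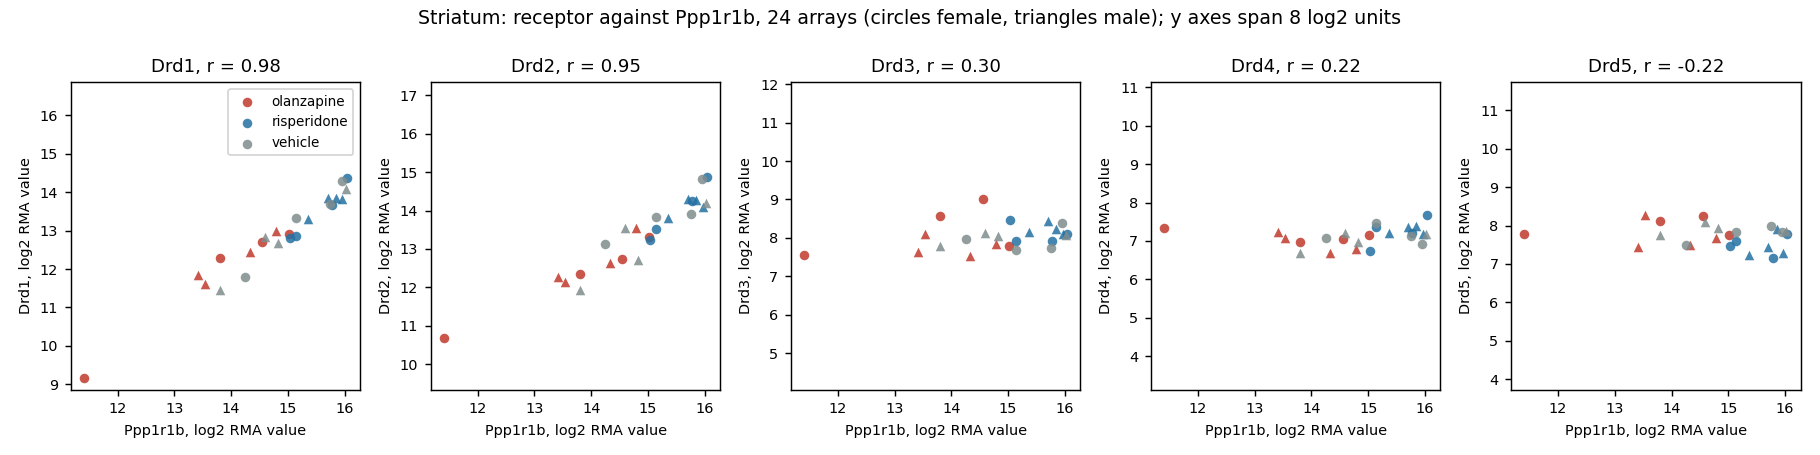
Each receptor (y axis) against Ppp1r1b (x axis) in the striatum, both as log2 RMA values, 1 point per array and coloured by treatment. Drd1 and Drd2 rise with Ppp1r1b within each of the 3 groups (r over all arrays 0.977 and 0.952) and Drd3, Drd4 and Drd5 lie along flatter clouds (0.298, 0.215 and -0.217).

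At equal Ppp1r1b, that is with Ppp1r1b added to the fit as a covariate, no receptor was called in any drug comparison, nor was any other gene (0 of 19504, against 974, 805 and 1029 genes at an unadjusted p under 0.05 for olanzapine minus vehicle, risperidone minus vehicle and olanzapine minus risperidone). Because Ppp1r1b was measured after 28 days of treatment and itself differed between the drugs, this fit can also remove a drug effect. Its values are therefore not drug effects corrected for tissue content. Drd2 differed by -0.05 between olanzapine and vehicle (SE 0.18, interval -0.43 to 0.33, adjusted p = 0.999 by limma) and by 0.05 between risperidone and vehicle (SE 0.16, interval -0.29 to 0.39). Drd1 differed by 0.31 between olanzapine and vehicle (SE 0.14, interval 0.02 to 0.60, unadjusted p = 0.0351, adjusted p = 0.967 by limma) and by -0.10 between risperidone and vehicle (SE 0.13, interval -0.36 to 0.16).

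Between the drugs, the difference at equal Ppp1r1b was 0.41 for Drd1 (SE 0.16, unadjusted p = 0.0169, adjusted p = 0.933 by limma) and -0.10 for Drd2 (SE 0.21, adjusted p = 0.981). As the Ppp1r1b values of the 2 drug groups did not overlap, this last comparison rests on the fitted line and on no mice of equal Ppp1r1b. Drd5 kept its size under this fit, with -0.39 for risperidone minus vehicle (SE 0.14, unadjusted p = 0.0123, adjusted p = 1 by limma).

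**Figure D4:**
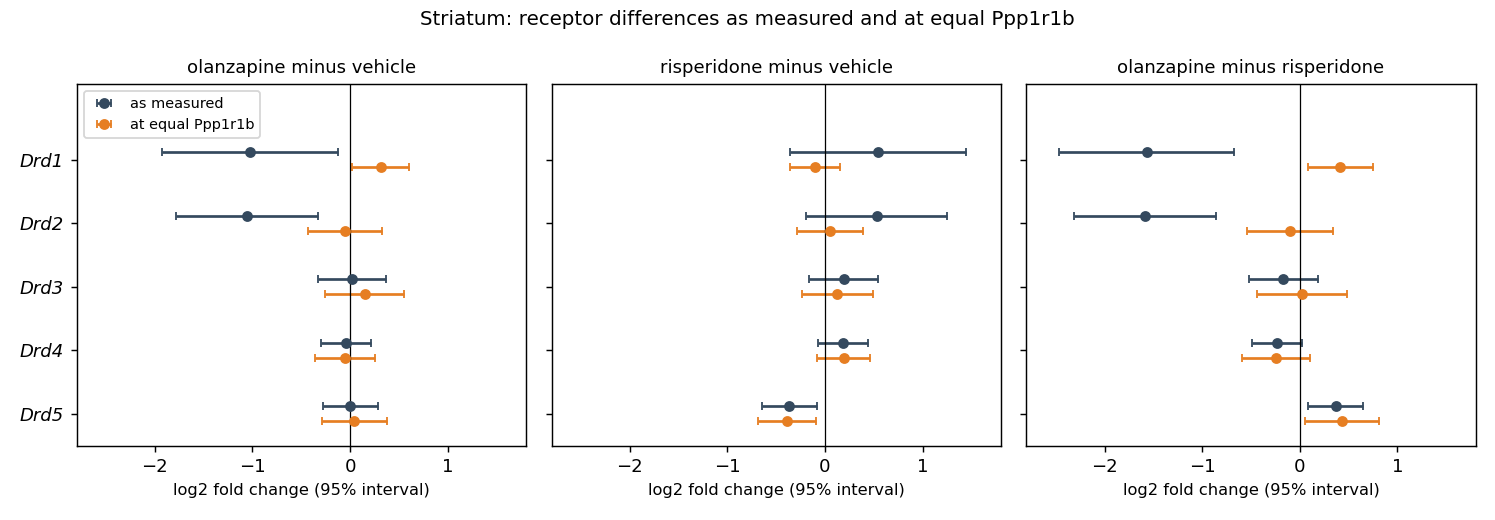
Log2 fold changes (x axis) of the 5 receptors (y axis) in the striatum with 95% intervals, as measured and with Ppp1r1b as a covariate. For Drd1 and Drd2 the olanzapine differences as measured (-1.03 and -1.06 against vehicle) lie below 0. At equal Ppp1r1b that of Drd1 (0.31) lies above 0 with an interval that does not reach it, though it was not called. That of Drd2 (-0.05) lies near 0, while Drd3, Drd4 and Drd5 move little.

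Drd1 and Drd2 also went with each other, at r = 0.954 and rho = 0.973 (adjusted permutation p = 0.0001 over 10 pairs of receptors), and at r = 0.942 with treatment and sex means removed. The difference between the 2 genes within a mouse (Drd1 minus Drd2) averaged -0.46 ± 0.47 in olanzapine-treated mice, -0.48 ± 0.13 in risperidone-treated mice and -0.49 ± 0.42 in vehicle-treated mice (SD, n = 8 each). Olanzapine differed from vehicle in this by 0.03 (two-sided exact permutation p = 0.897), and risperidone from vehicle by 0.01 (p = 0.958 by the same exact test). Its extremes were -1.53 (an olanzapine-treated mouse) and -0.02 (a vehicle-treated mouse). No other pair of receptors had an adjusted p under 0.05 as measured. With treatment and sex means removed, Drd3 and Drd5 correlated at r = 0.546 (adjusted permutation p = 0.0262, but 0.0562 for rho), and as measured at r = 0.301, which was 0.069 without the 2 farthest arrays. The permutation did not allow for the means that had been fitted, so the p-values with means removed can be too small.

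Marker lists of striatal cell types gave a similar picture for Drd1 and Drd2. Drd1 correlated at r = 0.949 with the mean of 7 direct pathway markers and at r = 0.954 with that of 6 indirect pathway markers, and Drd2 at 0.917 and 0.954 (adjusted permutation p = 0.000112 each, over 45 relations). The difference between the values for the 2 pathways was not tested for either receptor. Both receptors ran against the markers of thalamus, septum and pallidum, at r = -0.546 for Drd1 (adjusted permutation p = 0.0154) and -0.602 for Drd2 (0.00996). Without the 2 farthest arrays these were -0.465 and -0.519 (adjusted p-values 0.112 and 0.0649). By rank over the 24 arrays neither passed (rho = -0.450 and -0.487, adjusted permutation p-values 0.118 and 0.0776). Microglial markers went with Drd1 at r = 0.582 and with Drd2 at r = 0.583 (adjusted permutation p-values 0.0108 and 0.012). The mean of 4 measured markers of cholinergic interneurons, of which only 2 were above the olfactory background, went with Drd1 at r = 0.695, with Drd2 at r = 0.632 and with Drd3 at r = 0.607 (adjusted permutation p-values 0.00072, 0.00757 and 0.00996). Without the 2 farthest arrays these were 0.685, 0.537 and 0.478 (adjusted p-values 0.00289, 0.0511 and 0.102). Astrocyte markers ran against Drd1 at r = -0.543 and Drd2 at r = -0.498 (adjusted permutation p-values 0.0237 and 0.044), but by rank, and without the 2 farthest arrays, neither passed. Drd1 and Drd2 did not pass with cortical (r = 0.168 and 0.210), choroid plexus (-0.022 and -0.021) or oligodendrocyte markers (-0.054 and 0.024). Their adjusted permutation p-values with these lists were 0.523 to 0.928. Drd4 and Drd5 had no adjusted p under 0.05 with any list over the 24 arrays.

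Some lists of cell type markers, but not all, held genes that were called between the drug groups. Of 8 cortical, 8 oligodendrocyte, 7 astrocyte and 4 cholinergic interneuron markers, 0 were called between the drugs. The median changes of these lists were -0.75, -0.40, -0.005 and -0.31, and with any 1 mouse left out each had at most 1 call. Positive changes were held by 0 cortical, 0 oligodendrocyte, 3 astrocyte and 1 cholinergic marker, so the lack of calls does not show level lists. At an unadjusted p under 0.05 by limma, 1 cortical, 3 oligodendrocyte and 1 astrocyte marker were lower, against 8.26% of all genes. In the other direction 1 astrocyte marker was higher, against 10.8%. Of 11 projection neuron markers, 0 were called against vehicle for either drug, and 10 were called lower in olanzapine-treated than in risperidone-treated mice, against 2% of all genes. The median change of that list was -1.47, against -0.01 over all genes. Rasd2, which encodes a striatal small G protein, changed by -1.92 (adjusted p = 0.0112 by limma) and Pde10a, a cyclic nucleotide phosphodiesterase, by -1.47 (adjusted p = 0.0103). Of the pathway markers, 3 of 7 direct ones (Chrm4, Slc35d3 and Tac1) and 3 of 6 indirect ones (Gpr52, Gpr6 and Penk) were lower. With F26 left out, 8 projection neuron markers, 2 direct and 0 indirect pathway markers were called. The indirect count was also 0 without F6, F7 or M25, and 1 without F4, M4, M23, M24 or M26. Averaged per mouse, the projection neuron markers lay at between 11.91 and 14.55 in olanzapine-treated mice, between 14.69 and 15.64 in risperidone-treated mice and between 13.60 and 15.60 in vehicle-treated mice.

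In the opposite direction, 3 of 10 markers of thalamus, septum and pallidum were called higher in olanzapine-treated than in risperidone-treated mice, against 2.86% of all genes, and the median change of the list was 2.29. This count was 2 without F26 and 8 without F23 or M9. The genes called higher over the whole table also changed, from 557 to 244 without F26, 894 without F23 and 1204 without M9. Slc17a6, the vesicular glutamate transporter of thalamic neurons, ranged from 7.63 to 13.31 in olanzapine-treated mice and from 6.43 to 12.48 in risperidone-treated mice (difference 3.45, SE 0.98, adjusted p = 0.0396 by limma, but 0.0896 without F26). Calb2, encoding calretinin, differed by 5.09 (SE 1.16, adjusted p = 0.0135). Choroid plexus markers were called lower in olanzapine-treated than in risperidone-treated mice for 3 of 11 genes, or for 1 without F4 or M25. Against vehicle, 8 of the 11 were higher under risperidone at an unadjusted p under 0.05 by limma (median 0.795), against 2.96% of all genes. Under olanzapine 0 of the 11 were at such a p (median -0.016). Between the drugs 1 of 6 microglial markers, Csf1r, was lower by 0.50 in olanzapine-treated mice (a call lost without F26, adjusted p = 0.0565 by limma). The part of all these markers in the receptor differences was not tested beyond the fit with Ppp1r1b.

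The genes around the receptors were described by 4 lists. Among 10 G protein and adenylyl cyclase genes, 3 were called lower and 1 higher in olanzapine-treated than in risperidone-treated mice, against 2% and 2.86% of all genes, and the median change of the list was -0.11. The lower ones were Gng7, the G protein gamma subunit of striatal neurons (-1.90, adjusted p = 0.0122 by limma), Adcy5, the main striatal adenylyl cyclase (-1.27, adjusted p = 0.021), and Gnb5, the partner of R7 RGS proteins (-0.78, adjusted p = 0.0121). Gnas, which encodes the stimulatory alpha subunit Gs, was higher (0.85, adjusted p = 0.0144), whereas Gnal, the alpha subunit that couples D1 receptors to adenylyl cyclase in striatum, gave -0.68 and did not pass (adjusted p = 0.0646).

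Among 13 genes of the cAMP and DARPP-32 cascade, 6 were called lower and 2 higher (median -0.45). The lower ones were Ppp1r1b, Pde10a, Pde1b (-1.16), Pde4b (-0.46) and the phosphatase catalytic subunits Ppp1ca (-0.83) and Ppp1cc (-0.46), and the higher ones were the protein kinase A subunits Prkaca (0.57) and Prkar1a (0.46). Among 13 measured genes of receptor desensitisation and scaffolding, Rgs9 (-1.56) and Rgs4 (-0.61), which speed the shut-off of G proteins, were lower, and the receptor kinase Grk3 (0.68) and Rgs7 (0.39) were higher (median of the list 0.21). Rgs9, Gng7, Adcy5, Pde10a and Ppp1r1b also stand on the list of projection neuron markers. Without F26 the calls of Adcy5, Pde4b, Prkaca, Prkar1a, Rgs4 and Rgs7 were lost (adjusted p-values 0.052 to 0.0727). Over all single mice left out, 2 to 4 G protein and adenylyl cyclase genes were lower, and 5 to 6 of the cascade were lower and 0 to 2 higher.

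Of 7 measured genes for dopamine synthesis, transport and breakdown, 0 were called by limma in any drug comparison of the striatum, with 3 at an unadjusted p under 0.05 between the drugs. Between the drugs, 4 were called higher without M9 and 1 without F23, where 1204 and 894 of 19505 genes were called higher. The lowest p-values there belonged to Maob, a dopamine-degrading oxidase (0.82, adjusted p = 0.0632), and Th, the rate-limiting enzyme of dopamine synthesis (1.52, SE 0.64, adjusted p = 0.182). Th ranged from 7.11 to 12.14 in olanzapine-treated mice, from 7.65 to 9.95 in risperidone-treated mice and from 7.78 to 11.44 in vehicle-treated mice. Slc6a3, the dopamine transporter, ranged from 6.38 to 10.39, from 6.37 to 7.49 and from 5.63 to 10.33 in those groups. Both genes are expressed by midbrain dopamine neurons and not by striatal projection neurons, and single mice reached far above their group medians.

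Against vehicle, 0 genes of these 4 lists were called for either drug. The lowest p-values for olanzapine were those of Pde10a (-0.97, adjusted p = 0.268 by limma), Ppp1cc (-0.36, 0.268), Rgs4 (-0.51, 0.273), Gnb5 (-0.52, 0.278), Rgs9 (-1.06, 0.288), Gng7 (-1.17, 0.308), Ddc (0.72, 0.595) and Slc18a2 (0.56, 0.61). For risperidone they were those of Pde4b (0.36), Ppp1ca (0.42), Rgs7 (-0.23), Maoa (-0.36), Grk3 (-0.32), Gnb1 (-0.17), Gnas (-0.36) and Maob (-0.42), with adjusted p-values of 0.913 or 0.915. None of these passed.

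The genes whose striatal values were most like those of each receptor were found by Pearson's r over 24 arrays after treatment and sex means were removed, as a description. For Drd1 they were Rgs9 (0.988), Ppp1r1b (0.976), Penk (0.970), Adcy5 (0.965) and Pde1b (0.959). For Drd2 they were Syt6 (0.957), Smpd3 (0.955), Rasd2 (0.948), Rxrg (0.946) and Dach1 (0.943). Penk, the enkephalin precursor of indirect pathway neurons, was thus among the 5 genes nearest to Drd1. At the other end stood Slc35e3 (-0.873), Hapln4 (-0.826) and Atp6v1a (-0.822) for Drd1 and Atp6v1a (-0.885), Ndfip1 (-0.875) and Slc35e3 (-0.868) for Drd2.

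For the dim receptors the nearest genes were less close and had no common theme that was tested. Drd3 was nearest to Cacna2d2 (0.774), Npffr2 (0.764), Gnrh1 (0.737), Mcph1 (0.729) and Efcab12 (0.727) and farthest from Bace1 (-0.727), Cuta (-0.718) and Sympk (-0.679). Drd4 was nearest to Psg19 (0.735), AY358078 (0.722), Asb2 (0.720), Krtap27-1 (0.719) and Sdhc (0.714) and farthest from Fsd2 (-0.750), Stx12 (-0.734) and Rnf168 (-0.719). Drd5 was nearest to Myh13 (0.803), Olfr317 (0.765), Kif18b (0.753), 6030458C11Rik (0.708) and Neurog1 (0.696) and farthest from Vmn2r66 (-0.725), Ell2 (-0.680) and Fbxo5 (-0.678). An olfactory and a vomeronasal receptor gene were among those of Drd5.

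No receptor was called for sex in the striatum. Male minus female ranged from -0.11 for Drd2 to 0.08 for Drd1, with 0 of 5 called against 0.39% of all genes. The change of Drd2 under olanzapine was -0.45 in males and -1.67 in females, a difference of 1.22 (SE 0.68, unadjusted p = 0.0865, adjusted p = 0.811 by limma). For Drd1 under olanzapine the changes were -0.54 in males and -1.52 in females (adjusted p of the difference 0.885). The gap of Drd1 rested largely on the female F26, and that of Drd2 in part. Without F26 the change in females was -0.65 for Drd1 and -1.14 for Drd2, and males differed from females by 0.11 (adjusted p = 0.997 by limma) and 0.69 (adjusted p = 0.957). No interaction of sex and drug was called for any receptor in any tissue, over 40 tests, of which 2 had an unadjusted p under 0.05. Both of these were for risperidone in the adipose tissue, where 0.0513% of all genes were called, against 0% for every other drug and tissue. Across drugs and tissues, between 2.54% and 13.2% of all genes had an unadjusted p under 0.05 by limma.

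In the liver, pancreas and adipose tissue no receptor was called for either drug, and 0 of 30 tests against vehicle had an unadjusted p under 0.05. Over all genes, 0.0205% were called for olanzapine and 0.041% for risperidone in the liver, and 0% for both drugs in the pancreas and adipose tissue. The log2 fold changes of the receptors ran from -0.34 to 0.37, and their 95% intervals stayed within -0.89 to 0.80. The lowest p belonged to Drd5 in the liver. It ranged from 5.64 to 6.66 in olanzapine-treated mice (median 5.94), from 5.05 to 6.48 in risperidone-treated mice (median 5.81) and from 5.32 to 5.85 in vehicle-treated mice (median 5.64). Olanzapine minus vehicle was 0.37 (SE 0.18, unadjusted p = 0.0523, adjusted p = 0.764 by limma), in a gene whose mean exceeded 90.9% of the olfactory receptor genes.

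The D2 receptor of the pancreas is of interest because dopamine is known to restrain insulin secretion. There Drd2 had lowest, median and highest values of 6.10, 6.43 and 7.10 in olanzapine-treated mice, 5.86, 6.52 and 7.33 in risperidone-treated mice and 5.14, 6.22 and 7.85 in vehicle-treated mice. The groups overlapped fully, and the mean of the gene exceeded only 32.0% of the olfactory receptor genes. Only 2 of 9 islet markers were above the 95th percentile of those genes on these arrays of whole pancreas.

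In the adipose tissue the most negative value was that of Drd5 under risperidone, with 5.88 to 7.18 in risperidone-treated mice (median 6.68) and 6.48 to 7.62 in vehicle-treated mice (median 6.90). The difference was -0.34 (SE 0.19, unadjusted p = 0.088, adjusted p = 0.588 by limma). The adipose samples of risperidone-treated males differed in their cell type markers. The mean of 7 adipocyte markers lay between 11.20 and 14.06 in risperidone-treated males and between 13.57 and 15.30 in vehicle-treated males, and that of 9 measured gonad and epididymis markers between 7.19 and 9.21 in risperidone-treated males and between 6.82 and 7.12 in vehicle-treated males. In females the adipocyte markers lay between 13.47 and 14.99 under risperidone and between 14.31 and 14.79 under vehicle, and the gonad and epididymis markers between 6.36 and 7.18 under risperidone and between 6.56 and 6.78 under vehicle. Of the 9, only Lcn5, an epididymal lipocalin, was above the 95th percentile of the olfactory receptor genes over all mice. The part of these markers in the receptor values was not tested. For Drd1 and Drd2 the change under risperidone was -0.69 and -0.50 in males and 0.17 and 0.32 in females. The sexes differed in this by -0.86 for Drd1 (SE 0.39, unadjusted p = 0.0381, adjusted p = 0.355 by limma) and by -0.82 for Drd2 (SE 0.37, unadjusted p = 0.0369, adjusted p = 0.354), against 0.0513% of all genes called. At an unadjusted p under 0.05 there were 2577 of 19505 genes (13.2%), and the median over all genes was -0.14 in the same direction. Drd4 was 0.29 higher in males than in females (unadjusted p = 0.0152, adjusted p = 0.147), against 4.6% of all genes called for sex.

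**Figure D5:**
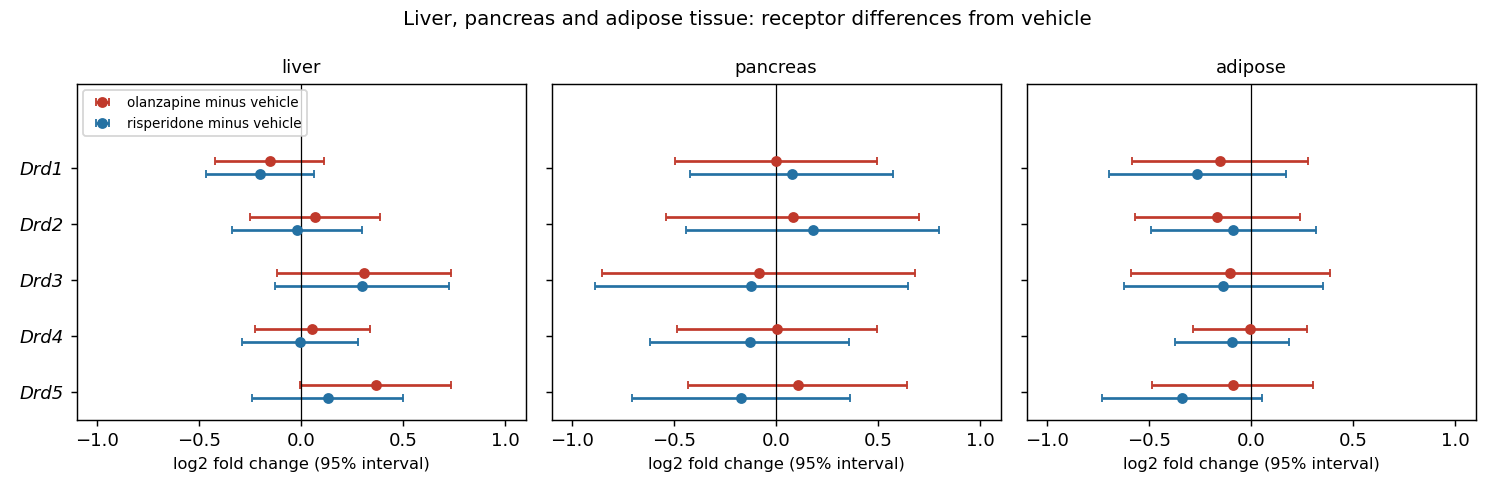
Log2 fold changes against vehicle (x axis) of the 5 receptors (y axis) in the liver, pancreas and adipose tissue, with 95% intervals, for olanzapine and risperidone. Every interval includes 0, and the estimates run from -0.34 to 0.37.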

How the data were processed

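The deposited table holds log2 values of 96 mouse Clariom S arrays, summarised by the authors with robust multichip analysis (RMA): background correction, quantile normalization and 1 value per transcript cluster. Affymetrix Expression Console 1.4 stands in the submitters' processing notes and Babelomics 5.0 in the supplementary methods. Whether the tissues were normalized together, and the genome build, are not given in the sources used here. Of 22206 clusters, 19572 carry 1 gene symbol; clusters of a gene were averaged (55 genes), which left 19505.

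Genes were tested with limma 3.58.1 in R 4.3.3 (statmod 1.5.0), with a separate model for each tissue (24 mice; terms for treatment and sex) and dim genes kept. P-values were adjusted by Benjamini-Hochberg over all genes of a tissue, and genes were called under 0.05. The fit at equal Ppp1r1b added that gene as a covariate and tested the other 19504. Correlations carry two-sided permutation p-values, from 100000 permutations or, for 8 mice, all pairings (scipy 1.17.1, numpy 2.4.6 and pandas 2.3.3 under Python 3.11.15), adjusted within their family. Groups were taken from the sample labels. Samples of a group are different mice. As arrays carry no read depth, precision is limited by how many there are.

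The members and the 22 gene lists were chosen with earlier results of these data known. Named genes are the receptors, Ppp1r1b, genes of the dopamine signalling and marker lists that passed over all genes in the striatum (otherwise the 2 with the lowest p of a list), and, per receptor, the 5 genes most and 3 least like it. Some listed genes that did not pass, Gnal and Slc6a3 among them, were named after their values were seen. In simulated striatum data of 19505 genes for olanzapine minus vehicle, limma called 35.8% of 67 genes changed by 0.5, 98.5% of 67 changed by 1 and 100% of 66 changed by 2 on the log2 scale; in the pancreas these shares were 1.49%, 22.4% and 90.9%. The simulated noise was independent between genes, and the changed genes were picked at random from the whole table. These shares therefore do not give the chance of a call for Drd1 or Drd2, which varied widely between mice. Alternatives were another variance model, normalization, filter, covariate or weighting, 16 mice instead of 24, other markers and each mouse left out.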

Additional observations from a re-analysis of the deposited data

Results flagged for a closer look

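The values of each receptor in each group of 8 mice and tissue were searched for a single array far from the other 7, by the gap to its nearest neighbour as a share of the range. This gave 2 arrays in 60 groups, where chance alone gives about 3. Drd1 in the striatum of the olanzapine-treated female F26 was 9.16, with the next value of its group at 11.61. Drd4 in the liver of the risperidone-treated female F5 was 6.69, with the next value at 6.03. F26 also had the lowest striatal values of Drd2 (10.69) and Ppp1r1b (11.41), and Drd1 and Drd2 without it are given with the comparisons.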

How the results depend on the processing

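In the striatum, Drd2 stayed called for olanzapine minus risperidone in each of 7 settings that kept all mice of the 2 drug groups. With a trended and robust variance, the count of receptors called between the drugs was 1, since Drd1 (-1.57) did not pass (adjusted p = 0.0751 by limma). With any 1 mouse left out that count was 1 to 2, and Drd1 ran from -1.72 to -1.15. With array weights Drd5 passed as well (0.44, adjusted p = 0.0366), and the genes called over the table were 2229 between the drugs, 21 for olanzapine and 1 for risperidone. Without sex as a covariate the liver count between the drugs was 2 (11 with it), and with array weights the liver counts were 7 for olanzapine and 14 for risperidone (4 and 8 without). No receptor was called against vehicle in any tissue or setting. Of 43 single changes outside the striatum not named above, 22 changed sign in some setting, none of them above 0.18 in size.

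Values near 0 changed sign. Olanzapine minus vehicle for Drd3 was -0.012 after quantile normalization. With 1 mouse left out it ran from -0.12 to 0.10, and Drd4 from -0.096 to 0.0092. At equal Ppp1r1b the ranges were -0.20 to 0.043 (Drd2), -0.046 to 0.27 (Drd3), -0.16 to 0.0058 (Drd4) and -0.040 to 0.11 (Drd5) for olanzapine minus vehicle, -0.028 to 0.15 for Drd2 under risperidone, and -0.20 to 0.16 for Drd3 between the drugs. The slope of Drd4 ran from -0.050 to 0.076. With the mean of the projection neuron markers as covariate, Drd2 under risperidone was -0.011. Leave-one-out values of the slopes, of Ppp1r1b, of the gene lists and of the differences between the sexes, and all alternatives for olanzapine minus risperidone at equal Ppp1r1b, were chosen after seeing the data.

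Correlations with Ppp1r1b kept their sign and call for Drd1 and Drd2 with Pde10a or the marker mean in its place, by rank, after quantile normalization and within each group, except that Drd2 did not pass by rank within risperidone (rho = 0.786, adjusted exact permutation p = 0.0698). For Drd3, r was -0.165 within risperidone. For Drd4 it was -0.030 with treatment and sex means removed, -0.606 within olanzapine and 0.538 without the 2 farthest arrays. For Drd5 it was 0.120 with the means removed, 0.029 within olanzapine, 0.170 within risperidone and 0.349 within vehicle. The causes were not tested.

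No paired analysis was possible because the 3 treatment groups of a tissue are different mice, and a shared number only names the same mouse in the other tissues. Each receptor had 1 transcript cluster, so testing clusters singly gave nothing further. Signals of Drd3, Drd4 and Drd5, and of all receptors outside the striatum, lie so near the olfactory background that a change in them can be understated.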
